A study of Mus musculus with 12 samples.

Results

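This account covers 45 genes that run or mark the cell division cycle, measured in mouse mammary tumors that carry the label ShcA-null. They are the cyclins, cyclin-dependent kinases and their inhibitors, the transcription factors of the cycle, and the kinases, checkpoint, centromere and spindle proteins of mitosis. Members were taken by gene symbol from the array design, under the current or an older symbol (Cdk1 is listed there as Cdc2a). Each gene was represented by its brightest probe, by mean log2 intensity over both RNAs and all arrays. Raw mean signal would pick another probe for 2 genes, Ccnb1 and Kif23. All 45 were found, with 76 probes, among 20419 genes tested. All 45 also passed the filter on dim probes, and the probe used was well above background in both RNAs on 12 of 12 arrays.

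The tumors compared were 8 mammary tumors whose labels call them ShcA-null, each set against a pool of NIC tumor RNA on two-colour Agilent oligonucleotide arrays. ShcA is the adaptor protein, made from Shc1, that couples receptor tyrosine kinases to Ras. In the NIC model a mammary promoter drives an activated Neu (ErbB2) receptor and Cre recombinase from a single transcript, so tumors and pool both carry the oncogene and Cre, and the design text names the pool MMPV-NIC. The labels give no age, strain, deleted exon or number of pooled animals. Every tumor had a first array with its RNA in Cy5, and tumors 1 to 4 had a second array with the dyes swapped, which makes 12 arrays. All values below are log2 ratios of tumor over pool, and a value of 1 is a 2-fold higher level in the tumor. The mean over 8 tumors was tested against 0 with limma, and a gene was called at a Benjamini-Hochberg adjusted p under 0.05 over all genes. The pool is 1 control sample, so how much control tumors vary does not enter the test.

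Cells enter the cycle when D-type cyclins with Cdk4 or Cdk6 phosphorylate the retinoblastoma protein and release E2F factors, which switch on genes for DNA replication. Cyclins E and A with Cdk2 carry S phase, and cyclin B with Cdk1 starts mitosis, when a second set of genes, many under Foxm1 and the B-Myb complex, peaks. In mammary epithelium, Neu signalling and cyclin D1 are known to act in one pathway that drives proliferation, and p27 (Cdkn1b) holds it back.

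Some facts of the whole series bear on these genes. Shc1 itself was not called different (mean 0.12 ± 0.65, SD, n = 8; limma adjusted p = 0.716). It was far below the pool on 2 arrays, the first array of tumor 3 (-2.05) and the swapped array labelled tumor 2 (-2.22), and the others lay between -0.03 and 0.74, so Shc1 RNA bears out the label of few tumors unless its probe lies outside the deleted part. The swapped arrays are of doubtful label: over all probes the swapped array labelled tumor 2 correlated at 0.14 with the first array of tumor 2 and at 0.82 with that of tumor 3, and those labelled tumors 3 and 4 also matched another tumor best (tumor 4 at 0.39 and tumor 8 at 0.68). Values of tumors 2 to 4 below are means of both arrays and so include an array of doubtful label. Means over first arrays alone are given for the genes called and where they change a call, and single arrays for some genes only. Statements of which tumors lie above or below the pool rest on the means of both arrays unless arrays are named. In tumors 6 and 7, probes lying towards the 5' end of a gene read lower than probes towards its 3' end, with a median difference of -1.003 and -0.65 log2 units over 4112 genes, while the other 10 arrays gave medians from -0.14 to 0.41. Both tumors are kept in the main values, and values without them are given where a call rests on them. Luminal keratin and milk protein genes were detected in every tumor. In bulk RNA, fewer cells of a type and less RNA per cell cannot be told apart.

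Promoters of 3 mitotic genes called higher than the pool and of Mki67, which was not, are shown to compare the letters read by the factors of late cell cycle genes. The windows hold the 250 bases before the RefSeq start (GRCm38.p6, all on the minus strand, written 5' to 3' along the gene): chr9:61946800-61947049 for Kif23, chr2:127831860-127832109 for Bub1, chr11:43425982-43426231 for Pttg1 and chr7:135716380-135716629 for Mki67. Capitals mark the CHR element of the B-Myb and DREAM complexes (TTTGAA or TTCGAA) and the CCAAT box of NF-Y, each searched on both strands.
Kif23: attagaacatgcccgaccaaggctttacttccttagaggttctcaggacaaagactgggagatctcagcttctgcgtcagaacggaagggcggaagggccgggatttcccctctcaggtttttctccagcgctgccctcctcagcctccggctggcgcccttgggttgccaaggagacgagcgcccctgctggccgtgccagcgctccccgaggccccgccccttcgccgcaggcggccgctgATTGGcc
Bub1: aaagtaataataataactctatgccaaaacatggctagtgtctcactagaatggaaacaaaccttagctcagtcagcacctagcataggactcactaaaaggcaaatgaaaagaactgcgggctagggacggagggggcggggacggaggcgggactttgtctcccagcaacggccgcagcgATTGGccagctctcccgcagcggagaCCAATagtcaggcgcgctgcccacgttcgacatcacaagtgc
Pttg1: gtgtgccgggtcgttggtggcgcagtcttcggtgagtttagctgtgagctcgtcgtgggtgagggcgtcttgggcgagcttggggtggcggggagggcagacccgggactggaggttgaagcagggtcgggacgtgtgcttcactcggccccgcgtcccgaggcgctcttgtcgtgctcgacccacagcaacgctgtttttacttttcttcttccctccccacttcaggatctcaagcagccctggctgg
Mki67: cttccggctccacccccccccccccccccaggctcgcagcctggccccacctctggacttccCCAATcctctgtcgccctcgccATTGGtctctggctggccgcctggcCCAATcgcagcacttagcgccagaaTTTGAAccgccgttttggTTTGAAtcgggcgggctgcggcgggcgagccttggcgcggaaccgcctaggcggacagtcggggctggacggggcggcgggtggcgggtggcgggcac
Kif23 held 1 CCAAT match and no CHR match, Bub1 held 2 CCAAT matches and no CHR match, Pttg1 held neither, and Mki67 held 3 CCAAT and 2 CHR matches. Promoters were found for 35 of the 45 genes. A CHR match stood in 11 of the 35 (31.4%) and in 19.6% of 27025 genes with a promoter entry. A CCAAT match stood in 25 of the 35 (71.4%) and in 37.5% of all genes, and both stood in 10 (28.6%) and 7.00% of all. The members' windows were richer in G and C, with a median of 62.2% against 52.4%. A match is a stretch of letters and not a measured binding site, and a window without one says only that these letters are not in it.

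Most of the 45 genes were not called. Over the 8 tumors 6 genes were called higher, namely Kif23, Pttg1, Tpx2, Bub1, Kif20a and Cdkn1b, and 1, E2f2, was called lower. These 7 are 15.6% of the members, and 17.2% of all genes tested were called, so the share called is near the background. By direction, 13.3% of the members were called higher against 6.59% of all genes, and 2.22% lower against 10.6%. The median of the members' mean log2 ratios was 0.11, and that of all genes was -0.02. A log2 ratio of one sign in all 8 tumors was seen for 3 of the 45 genes (6.67%) and for 14.4% of all genes. In simulated data, with few of 18886 genes changed, the same test found 14% of true changes of 0.5 log2 units. It found 52% of true increases of 1 and 70% of true decreases of 1, so a gene not called may still differ. Each rate came from few changed genes in 1 simulated run. Noise and test treated both directions alike, so the gap between 52% and 70% is no measure of direction. The share of genes changed there was far below the share called here, so these rates are only a rough guide.

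**Figure D1:**
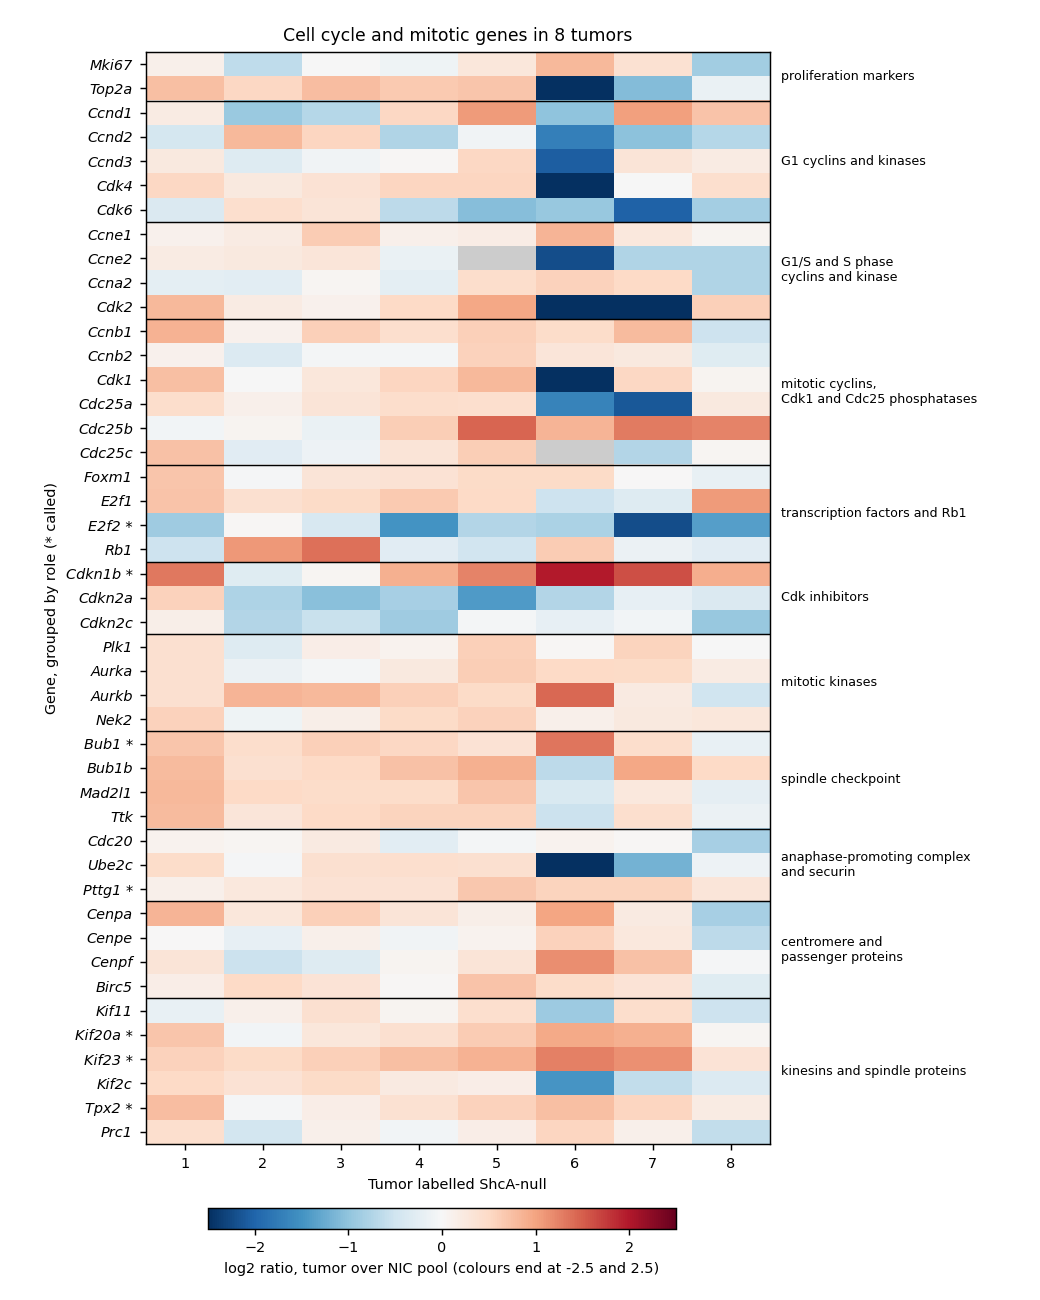
Log2 ratio of tumor over pool for each of the 45 genes (rows, grouped by role) in tumors 1 to 8 (columns). Colours run from blue (below the pool) to red (above) and end at 2.5 in size, grey marks a gene with no value, and an asterisk marks the 7 genes called. Tumor 6 holds the darkest red cell and, with Cdk2 in tumor 7, the darkest blue cells. Kif23 and Pttg1 are above the pool in every column.

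The tumors differed among themselves. The members' median was highest in tumor 5 (0.51) and lowest in tumor 8 (-0.17), the only tumor with a median below 0. In tumor 1, 38 of 45 genes were above the pool, and in tumor 8 only 18 were. Tumor 6 had a median of 0.11 but the widest spread, with an SD of 1.43 over the members and 1.23 over all genes, against 0.42 to 0.93 over the members in the other tumors. In tumor 6, 11 members were below -1 and 5 above 1. In tumor 7, 7 were below -1 and 4 above 1. In tumors 1 to 5 and in tumor 8 at most 2 members were below -1.

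Of the proliferation markers, Mki67, which encodes the Ki-67 protein of cycling cells, stood at the level of the pool. Its probe A_51_P253803 (mm7 chr7:132094802-132094861) gave 0.13, -0.64, -0.0024, -0.10, 0.29, 0.80, 0.38 and -0.86 in tumors 1 to 8. Tumor 6 was highest and tumors 2 and 8 were lowest, 4 above and 4 below 0. First arrays of tumors 1 to 4 read -0.31, -0.86, -0.72 and 0.21, and the swapped arrays so labelled 0.58, -0.41, 0.72 and -0.42. The mean was -0.00022 ± 0.54 (SD, n = 8; limma adjusted p = 0.999), with a 95% interval of -0.40 to 0.40. A second, upstream probe gave a mean of -0.02, but it put tumor 6 at -1.26. Top2a, the topoisomerase that untangles sister chromatids, gave 0.74, 0.52, 0.76, 0.65, 0.69, -3.70, -1.09 and -0.17 in tumors 1 to 8 (A_51_P252157, mm7 chr11:99104969-99105783). On this probe tumors 1 to 5 lay above the pool, and tumors 6 to 8 lay below it. The values of tumors 3 and 4 average unlike arrays. On first arrays Top2a read 0.03 in tumor 3 and 0.98 in tumor 4, and on the swapped arrays so labelled 1.495 and 0.31. Its mean of -0.20 ± 1.55 was not called (SD, n = 8; limma adjusted p = 0.795), and without tumors 6 and 7 it turned to 0.53 and was called (limma adjusted p = 0.0271). The 2 other Top2a probes, dimmer and not above background on every array, went the other way. They averaged -0.35 and -0.52. The probe at -0.52 was below the pool in all 8 tumors and was called lower (limma adjusted p over probes = 0.0438).

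Among the G1 cyclins and kinases none of 5 was called. Ccnd1 encodes cyclin D1, the main D-type cyclin of mammary epithelium. It gave 0.21, -0.93, -0.71, 0.51, 1.06, -1.002, 1.03 and 0.72 in tumors 1 to 8 (A_51_P262766, mm7 chr7_random:7568179-7568238). Tumors 5 and 7 were about 2-fold above the pool, and tumors 2, 3 and 6 were below it. For tumor 2 the first array read 0.14 and the swapped array so labelled -2.00, and for tumor 3 they read -1.70 and 0.29. The mean was 0.11 ± 0.87 (SD, n = 8; limma adjusted p = 0.799), with a 95% interval of -0.50 to 0.73, and first arrays alone gave 0.16 (limma adjusted p = 0.735). Cdk6, a kinase partner of the D cyclins, gave -0.37, 0.42, 0.33, -0.65, -1.06, -0.95, -2.02 and -0.85 (A_51_P489779, mm7 chr5:3535293-3535352). On this probe it lay above the pool in tumors 2 and 3 only, and its mean of -0.64 ± 0.79 was not called (SD, n = 8; limma adjusted p = 0.106). A dimmer probe averaged -0.82 and was called lower (limma adjusted p over probes = 0.0343). Another dimmer probe averaged -0.09 and was not called (limma adjusted p over probes = 0.725). The other D cyclins averaged -0.42 ± 0.83 for Ccnd2 and -0.15 ± 0.82 for Ccnd3 (SD, n = 8 for each). Cdk4, the other D cyclin kinase, lay between -0.01 and 0.54 in 7 tumors and at -3.43 in tumor 6. Without tumors 6 and 7 it averaged 0.44 and was called higher (limma adjusted p = 0.00761).

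In the group for the start and course of S phase none of 4 was called. Ccne1, a cyclin E gene, was above the pool in 8 of 8 tumors, from 0.07 to 0.85, with a mean of 0.30 ± 0.28 that missed the threshold (SD, n = 8; limma adjusted p = 0.0893). Its second kept probe, much dimmer and listed at the same coordinates, was also above the pool in all 8 tumors. That probe was called higher, with a mean of 0.67 (limma adjusted p over probes = 0.0064). The mean over both probes was called too (0.48, limma adjusted p = 0.0164). Ccne2, the other cyclin E gene, averaged -0.45 ± 0.90 over 7 tumors with a value. Ccna2, cyclin A2, averaged 0.0063 ± 0.47 (SD, n = 8). Cdk2, the kinase of cyclins E and A, gave 0.81, 0.20, 0.11, 0.50, 0.96, -2.64, -2.68 and 0.59 (A_52_P651298, mm7 chr10:128205529-128205588). The 6 other tumors were all above the pool and tumors 6 and 7 were far below. The mean was -0.27 ± 1.501 (SD, n = 8; limma adjusted p = 0.71), and without tumors 6 and 7 it was 0.53 and called higher (limma adjusted p = 0.0234). A second Cdk2 probe, downstream in the gene, was above the pool in every tumor with a mean of 0.92, reached 2.22 and 1.27 in tumors 6 and 7, and was called higher (limma adjusted p over probes = 0.0163).

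None of the 6 mitotic cyclin, Cdk1 and Cdc25 genes was called. Cdk1, the kinase that starts mitosis, gave 0.76, -0.01, 0.29, 0.54, 0.81, -3.43, 0.52 and 0.06 (A_51_P450033, mm7 chr10:68946079-68948488). One tumor, tumor 6, was far below the pool, and 6 of 8 were above it. The mean was -0.06 ± 1.40 (SD, n = 8; limma adjusted p = 0.938), and without tumor 6 it was 0.42 and called higher (limma adjusted p = 0.0396). Without tumors 6 and 7 it was 0.41 and not called (limma adjusted p = 0.06). Cdc25b encodes a phosphatase that activates the cyclin-dependent kinases, and it had the highest mean among the genes not called. It gave -0.07, 0.06, -0.17, 0.61, 1.46, 0.85, 1.29 and 1.25 (A_52_P612382, mm7 chr2:130939028-130939087). The values of tumors 2 to 4 average unlike arrays: their first arrays gave 1.23, 0.05 and 1.20 and their swapped arrays -1.10, -0.40 and 0.01. Tumor 1 has its swapped array only. Its mean was 0.66 ± 0.66 (SD, n = 8; limma adjusted p = 0.0597). First arrays alone gave 1.05 and a call (limma adjusted p = 0.00487), while the 4 swapped arrays gave -0.39. The 2 other Cdc25b probes averaged 0.15 and 0.22 and were not called (limma adjusted p over probes = 0.775 and 0.226). The cyclin B genes averaged 0.42 ± 0.45 for Ccnb1 and 0.06 ± 0.31 for Ccnb2 (SD, n = 8 for each). The phosphatase genes Cdc25a and Cdc25c averaged -0.22 ± 1.04 (SD, n = 8) and 0.08 ± 0.52 (SD, n = 7). Cdc25a lay between 0.13 and 0.45 in 6 tumors and at -1.67 and -2.11 in tumors 6 and 7.

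Of 4 transcription regulators, E2f2 was called lower. E2f2 encodes one of the E2F factors that switch on S phase genes. It gave -0.88, 0.04, -0.41, -1.502, -0.74, -0.80, -2.21 and -1.38 in tumors 1 to 8 (A_51_P368009, accession NM_177733, mm7 chr4:135573084-135573143). Tumor 7 was lowest, and tumor 2 was level with the pool. For tumor 3 the first array read 0.54, above the pool, and the swapped array so labelled read -1.36. The mean of -0.99 ± 0.70 is a 1.98-fold lower level (SD, n = 8; limma adjusted p = 0.0173). First arrays alone gave -0.87 (limma adjusted p = 0.0424), and without tumors 6 and 7 it was -0.81 (limma adjusted p = 0.0261). The call was lost with the slide as a random block, where the mean was -0.89 (limma adjusted p = 0.0609). E2f1, a close relative of E2f2, was not called: its mean was 0.37 ± 0.53 (SD, n = 8; limma adjusted p = 0.173), and without tumors 6 and 7 it was 0.63 and called higher (limma adjusted p = 0.00591). Foxm1, the forkhead factor of mitotic genes, averaged 0.26 ± 0.30. Rb1, the retinoblastoma gene, averaged 0.17 ± 0.75, and 0.02 on first arrays alone (SD, n = 8 for each). The first array of tumor 3 read 2.90 and the swapped array labelled tumor 2 read 3.09, while the first array of tumor 2 read -0.91 and the swapped array labelled tumor 3 read -0.13.

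Of 3 inhibitors of cyclin-dependent kinases, 1 was called, by its brightest probe, and its probes were called in opposite directions. Cdkn1b encodes p27, which blocks cyclin E with Cdk2. Its brightest probe gave 1.32, -0.31, 0.05, 0.89, 1.24, 1.98, 1.61 and 0.90 (A_51_P146126, accession AK169586, mm7 chr6:134939519-134939578). All but tumors 2 and 3 were well above the pool, and the mean was 0.96 ± 0.77 (SD, n = 8; limma adjusted p = 0.0263). Its 2 other probes, upstream and dimmer, were called lower, with means of -0.65 and -0.72. The mean over all 3 probes was -0.14 and not called (limma adjusted p = 0.361), so no direction can be given for the gene. The brightest probe's call was lost on first arrays alone (0.81, limma adjusted p = 0.0728) and without tumors 6 and 7 (0.68, limma adjusted p = 0.0646). Cdkn2a, the locus of the inhibitor p16 and of Arf, gave 0.57, -0.77, -1.05, -0.82, -1.41, -0.74, -0.20 and -0.36 (A_51_P144813, mm7 chr4:88678367-88678426). It was below the pool in 7 of 8 tumors, with tumor 1 the exception, and its mean of -0.60 ± 0.60 was not called (SD, n = 8; limma adjusted p = 0.0647). Cdkn2c, which encodes the inhibitor p18, was also below the pool in 7 of 8 tumors and averaged -0.41 ± 0.42 (SD, n = 8; limma adjusted p = 0.0827).

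The 4 mitotic kinases had positive means and none was called. Aurkb, the kinase of the chromosomal passenger complex, gave 0.40, 0.84, 0.81, 0.59, 0.49, 1.43, 0.23 and -0.50 (A_51_P415059, mm7 chr11:69133109-69133168). Tumor 6 was highest and tumor 8 alone was below the pool. The mean was 0.54 ± 0.56 (SD, n = 8; limma adjusted p = 0.073). The centrosomal kinases Aurka and Nek2 averaged 0.28 ± 0.28 and 0.29 ± 0.24, and Plk1, which acts from mitotic entry to cytokinesis, 0.19 ± 0.32 (SD, n = 8 for each). Nek2 was above the pool in 7 of 8 tumors and Aurka in 6 of 8. On first arrays alone Aurka averaged 0.43 and was called higher (limma adjusted p = 0.0378), and Aurkb averaged 0.29 with tumors 1 and 3 also below the pool (-0.32 and -0.15).

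The spindle checkpoint holds cells in metaphase until every chromosome is attached, and 1 of its 4 genes was called. Bub1, a checkpoint kinase at the kinetochore, gave 0.69, 0.45, 0.59, 0.52, 0.36, 1.33, 0.44 and -0.18 (A_51_P123405, accession NM_009772, mm7 chr2:127542105-127542164). It was above the pool in 7 of 8 tumors, highest in tumor 6 and below the pool in tumor 8. The mean of 0.52 ± 0.42 is a 1.44-fold higher level (SD, n = 8; limma adjusted p = 0.0364). Its call rests on the swapped arrays: they gave 1.03 (limma adjusted p = 0.0397), and first arrays alone gave 0.29 (limma adjusted p = 0.243). Bub1b, which encodes the checkpoint protein BubR1, was above the pool in 7 of 8 tumors and at -0.65 in tumor 6, with a mean of 0.51 ± 0.51 (SD, n = 8; limma adjusted p = 0.0676). Mad2l1 and the kinase gene Ttk averaged 0.32 ± 0.42 and 0.31 ± 0.43, both below the pool in tumors 6 and 8 alone (SD, n = 8 for each). Without tumors 6 and 7, a choice made after seeing the data under which 9.80% of all genes were called higher, all 4 checkpoint genes were called higher, with means from 0.40 (Bub1) to 0.63 (Bub1b).

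Among the genes of the anaphase-promoting complex and its target securin, 1 of 3 was called. Pttg1 encodes securin, which is destroyed to release the enzyme that separates sister chromatids. It gave 0.12, 0.25, 0.36, 0.36, 0.68, 0.55, 0.56 and 0.30 (A_51_P371190, accession NM_013917, mm7 chr11:43377052-43377111). Every tumor's value was above the pool, from 0.12 to 0.68, but the single arrays of tumors 1 to 4 spread more widely. Their first arrays read 0.04, 0.59, 0.07 and 0.79, and the swapped arrays so labelled 0.19, -0.08, 0.65 and -0.07. The mean of 0.40 ± 0.19 is a 1.32-fold higher level (SD, n = 8; limma adjusted p = 0.018), and first arrays alone gave 0.45 (limma adjusted p = 0.0237). The 4 swapped arrays gave 0.18 (limma adjusted p = 0.509), and with the slide as a random block the call was lost (0.36, limma adjusted p = 0.0979). Cdc20, the activator of the complex, averaged -0.08 ± 0.33, and Ube2c, its ubiquitin-conjugating enzyme, -0.31 ± 1.16 (SD, n = 8 for each). Ube2c was between -0.13 and 0.46 in 6 tumors, at -1.19 in tumor 7 and at -2.83 in tumor 6.

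None of the 4 centromere and passenger genes was called. Cenpa, the histone H3 variant of centromeres, averaged 0.33 ± 0.56 and was below the pool in tumor 8 alone (-0.83). The positive values of tumors 1 to 3 came from swapped arrays (1.86, 0.65 and 1.93), since their first arrays read -0.16, -0.08 and -0.73, and first arrays of all 8 tumors averaged -0.02. Birc5 encodes survivin of the passenger complex and averaged 0.28 ± 0.32, with 0.44 and a call on first arrays alone (limma adjusted p = 0.0452), and the kinetochore genes Cenpf and Cenpe averaged 0.22 ± 0.55 and 0.02 ± 0.36 (SD, n = 8 for each). An upstream Cenpe probe was called lower, with a mean of -1.16 and all 8 tumors below the pool (limma adjusted p over probes = 0.00678). On the probes used, all 4 had their lowest value in tumor 8 except Cenpf, which was lowest in tumor 2 (-0.53).

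Kinesins and spindle proteins held 3 of the 6 genes called higher. Kif23 encodes a kinesin of the midzone that cells need for cytokinesis. It gave 0.58, 0.47, 0.60, 0.75, 0.87, 1.25, 1.13 and 0.34 in tumors 1 to 8 (A_52_P27602, accession NM_024245, mm7 chr9:61946494-61947614, a span longer than the probe). Every tumor was above the pool, and tumors 6 and 7 were highest. The mean of 0.75 ± 0.32 is a 1.68-fold higher level, with a 95% interval of 0.48 to 1.02 (SD, n = 8; limma adjusted p = 0.00453). A second probe gave the same sign in all 8 tumors and a mean of 0.99. First arrays alone gave 0.78 (limma adjusted p = 0.00507), and the 4 swapped arrays gave 0.54 (limma adjusted p = 0.117). Kif23 was the 1 gene still called with the slide as a random block (0.70, limma adjusted p = 0.0107), when 3.00% of all genes were called higher, 6.41% lower and no member lower.

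Kif20a encodes another kinesin of the midzone, and it gave 0.70, -0.06, 0.29, 0.41, 0.64, 0.94, 0.89 and 0.04 (A_51_P133138, accession Y09632). By these values tumors 2 and 8 were level with the pool and the other 6 were above it. First arrays of tumors 2 and 3 read 0.46 and -0.30, and the swapped arrays so labelled -0.58 and 0.87. The mean was 0.48 ± 0.38 (1.40-fold, SD, n = 8, limma adjusted p = 0.0375), and the call was lost without tumors 6 and 7 (0.34, limma adjusted p = 0.0807). Tpx2, which targets Aurora A to the spindle, gave 0.78, -0.02, 0.16, 0.39, 0.58, 0.75, 0.55 and 0.21 (A_51_P369200, accession NM_028109, mm7 chr2:152634597-152634656). By these values it was above the pool in 7 of 8 tumors and level with it in tumor 2. For tumors 2 and 3 its first arrays read 0.42 and -0.37, and the swapped arrays so labelled -0.46 and 0.69. Its mean was 0.42 ± 0.29 (1.34-fold, SD, n = 8, limma adjusted p = 0.0318), and this call too was lost without tumors 6 and 7 (0.35, limma adjusted p = 0.0647). First arrays alone kept the call for Kif20a (0.53, limma adjusted p = 0.0382) and Tpx2 (0.43, limma adjusted p = 0.048). The remaining genes of this role were not called: the motor gene Kif11 averaged -0.02 ± 0.49, the microtubule-depolymerising kinesin gene Kif2c -0.09 ± 0.68, and Prc1, which bundles midzone microtubules, 0.03 ± 0.40 (SD, n = 8 for each).

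**Figure D2:**
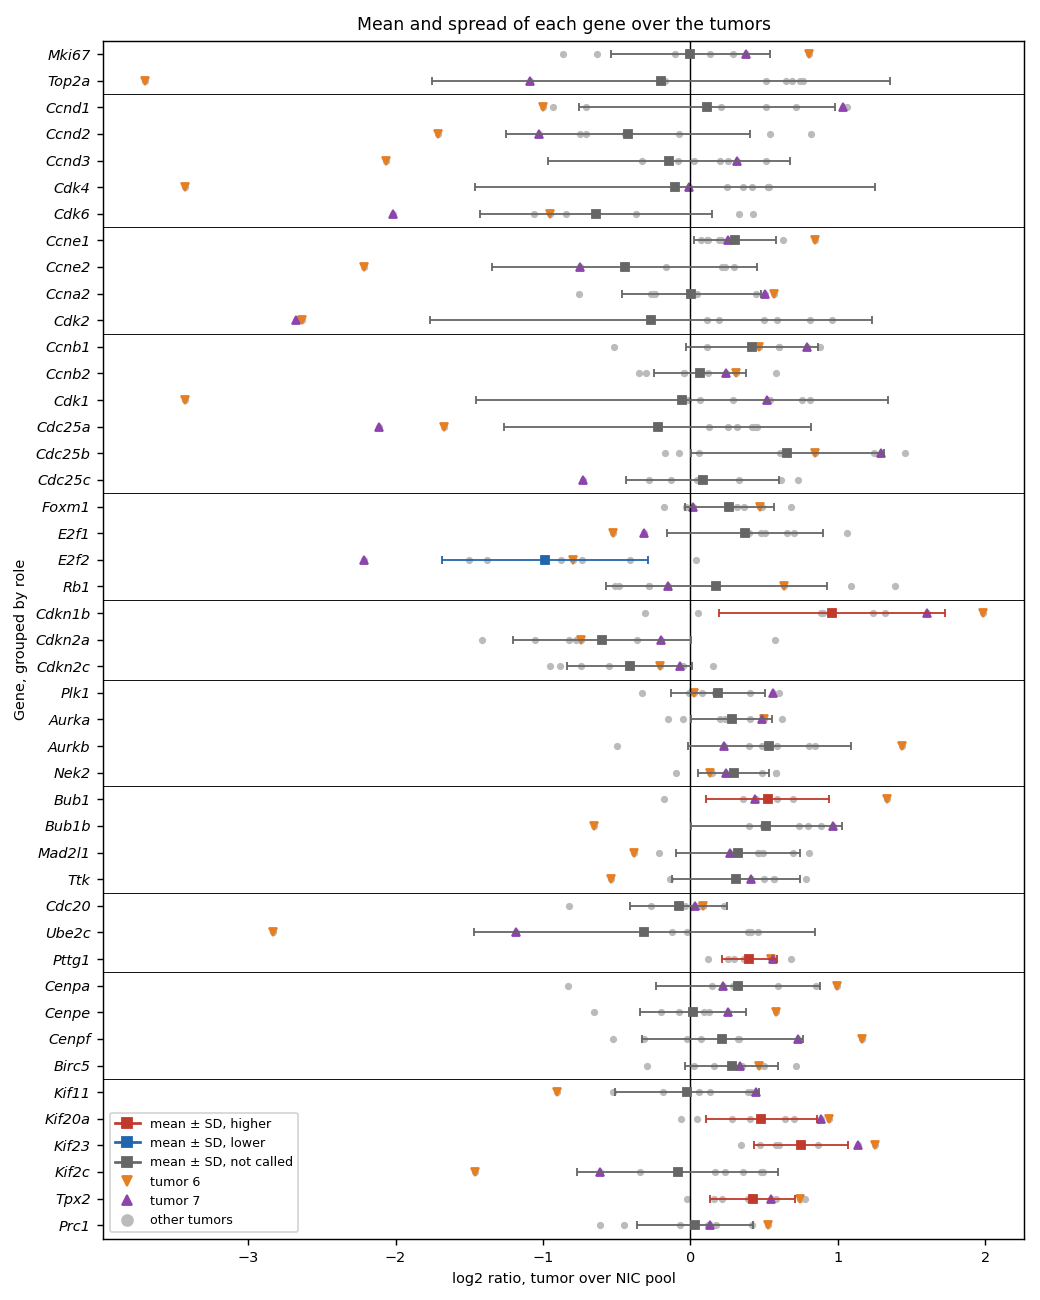
Each row is a gene, grouped by role, and the horizontal axis is the log2 ratio of tumor over pool. Squares with bars are the mean ± SD over the tumors, red for called higher, blue for called lower and grey for not called, small points are single tumors, and tumors 6 and 7 have their own symbols. The widest bars belong to Top2a (SD 1.55), Cdk2 (1.501), Cdk1 (1.40) and Cdk4 (1.36), each with tumor 6 far to the left, while the bars of Kif23 and Pttg1 stay right of 0.

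Calls and spread could be compared with probe position for genes with several probes. Of the 45 genes, 23 had more than 1 kept probe. In 6 of them the probes' means differed in sign, and only Cdkn1b had probes called in opposite directions. In tumor 6 the upstream probe was lower than the downstream one in 13 of 17 members, by over 1 log2 unit in 6, and in tumor 7 it was lower in 14 of 20, by over 1 in 4. In tumors 1 to 5 and 8 at most 1 of 19 or 20 members differed by that much in that direction. Cdk2 showed the widest gap, with 2.22 downstream and -2.64 upstream in tumor 6. Cdc25b gave 0.65 and -1.71 there, and Mki67 0.80 and -1.26. Top2a ran the other way: its downstream probe read -3.70 and its 2 dimmer upstream probes -1.04 and -1.25, all below the pool. Cdk1 read -3.43 on its bright upstream probe and -0.28 on a dim downstream probe that was not above background on every array. The part of probe position in the low values of tumors 6 and 7 was not tested.

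**Figure D3:**
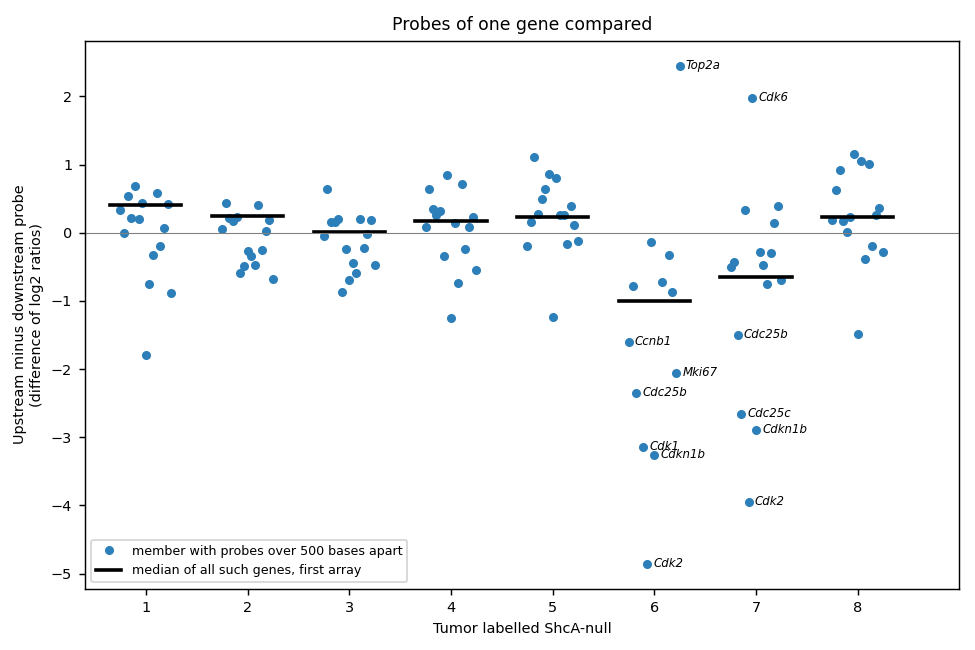
Difference in log2 ratio between the most upstream and the most downstream probe of a gene (vertical axis) in each tumor, for the members whose probes lie over 500 bases apart (points). Black lines are the medians over 4112 genes on the tumor's first array, and only in tumors 6 (-1.003) and 7 (-0.65) are they below 0. The points furthest from 0 in those tumors carry the gene's name.

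Without tumors 6 and 7, a choice made after seeing the data, 11 of the 45 genes were called higher (24.4%), against 9.80% of all genes. They were Kif23, Pttg1, Bub1, Bub1b, Mad2l1, Ttk, Top2a, Cdk2, Cdk4, Cdc25a and E2f1, of which 3 were also called over the 8 tumors. E2f2 was again the 1 gene called lower, against 15.0% of all genes. The members' median was 0.23 without these tumors and 0.11 with them.

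For tumors 1 to 4 the same tumors were measured, by label, in both dye orientations. Their first arrays put 36 of 45 members above the pool and their swapped arrays 31, and 30 members had the same sign in both. The orientations differed by over 1 log2 unit for 2 genes, Cdc25b (0.83 on first arrays, -0.39 on swapped ones) and Cenpa (-0.18 and 1.21). Dye, slide and the doubtful labels of the swapped arrays cannot be told apart here. On the swapped arrays alone 2 members were called higher, Aurkb and Bub1 (4.44%, against 4.41% of all genes), and none lower (3.61% of all genes). On the first arrays of all 8 tumors 7 were called higher (15.6%, against 8.28%) and E2f2 lower (13.1% of all genes). With each swapped array paired to its best match, as a random block, and the dye as a term, 12 arrays called 4 higher (Aurkb, Bub1, Cdkn1b and Kif23; 3.51% of all genes) and Cdkn2a and E2f2 lower (4.49%).

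**Figure D4:**
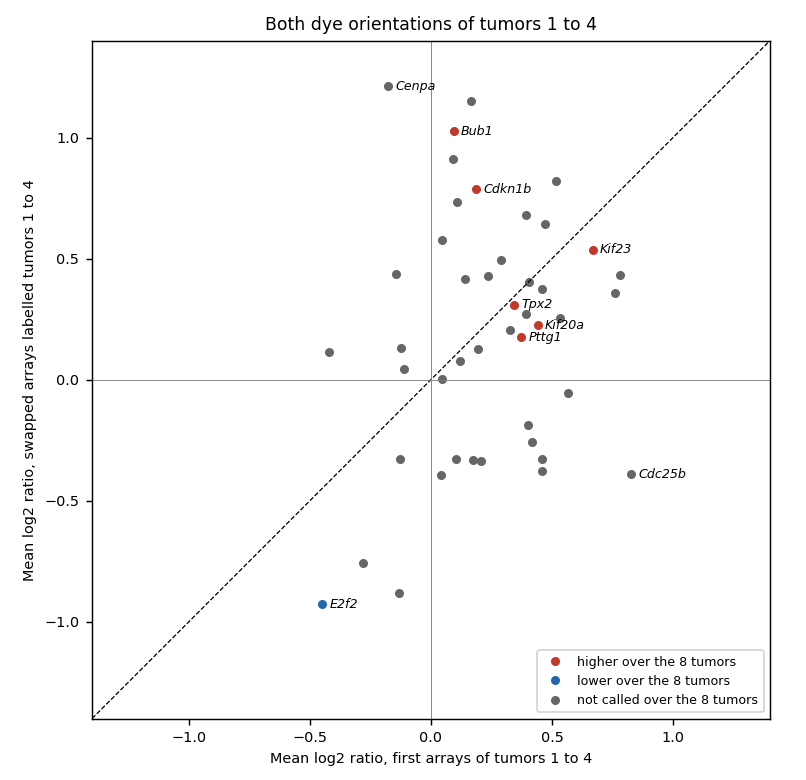
Each point is a gene, with its mean log2 ratio on the first arrays of tumors 1 to 4 (horizontal axis) and on the swapped arrays labelled with the same tumors (vertical axis). The dashed line marks equal values, and colours show the call over the 8 tumors. Kif23 and Tpx2 lie near the line, Bub1 (0.09 and 1.03), Cdkn1b (0.19 and 0.79) and Cenpa lie above it, and Cdc25b lies below it.

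Wider lists of 107 further cell cycle genes were set beside the members. Of 106 tested, 20 were called higher and 2 lower, against 6.59% and 10.6% of all genes, and their median was 0.17. Of 15 genes for E2F, pocket and DREAM proteins, 6 were called higher, with E2f4 at 1.02 ± 0.52, the B-Myb gene Mybl2 at 0.89 ± 0.17, and the repressor genes E2f8 at 0.87 ± 0.64 and E2f7 at 0.53 ± 0.47. Of 42 spindle, chromosome and cytokinesis genes 7 were called higher, among them Gtse1 (0.86 ± 0.42), Ckap2 (0.78 ± 0.53), Kif18b (0.67 ± 0.47) and Pimreg (0.62 ± 0.38). Of 28 kinetochore and centromere genes 4 were called higher, such as Cenpn (0.57 ± 0.44), Spc25 (0.49 ± 0.31) and Zwilch (0.43 ± 0.26), and the scaffold gene Knl1 was called lower (-1.11 ± 0.92). Of 21 further cyclin, kinase and inhibitor genes 3 were called higher, Cdkn3 (0.50 ± 0.31), the checkpoint kinase gene Chek1 (0.49 ± 0.36) and Pkmyt1 (0.42 ± 0.13), and Ccng2 was called lower (-0.62 ± 0.14; SD, n = 8 for each named gene).

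Markers of other cell types moved with some tumors. Over 11 T cell and 7 B and plasma cell markers tested, the median log2 ratio was 3.01 and 3.45 in tumor 7, and from 0.08 to 0.66 and from 0.16 to 0.81 in the others. Over 9 fibroblast markers it was 1.09 and 1.53 in tumors 2 and 3, 0.83 in tumor 6 and from -0.99 to 0.25 in the others. The 7 skeletal muscle markers tested had medians of 2.44 and 1.86 in tumors 2 and 3. In tumors 6 and 7 these medians were 1.07 and 1.15, and in the others they ran from -0.12 to 0.06. Marker values of tumor 2 include the swapped array that correlated best with the first array of tumor 3. Of 11 luminal and alveolar markers 6 were called higher, against 6.59% of all genes, and their median was 1.06. The part of these cells in the members' values was not tested.

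Leaving out 1 tumor ended some calls, while the means of the genes called over all tumors kept their sign. Among genes not called over all tumors, the means of Cdk1 (-0.18 to 0.42) and Top2a (-0.34 to 0.30) changed sign. Fewer genes were called in all, except without tumor 6, when 4540 were called against 3503. Without tumor 4 the 1 member still called was Kif23, when 3.21% of all genes were called higher and 6.40% lower. The means without tumor 4 were -0.91 for E2f2 and 0.40 for Pttg1 (limma adjusted p = 0.0511 for each), 0.53 for Bub1, 0.49 for Kif20a and 0.43 for Tpx2. Kif23 and Pttg1 were the 2 called higher without tumor 5 (5.59% of all genes) and without tumor 7 (4.33%). Without tumor 1 they were joined by Cdc25b (6.12% of all genes), Cdkn2a was called lower beside E2f2 (8.60%), and the Tpx2, Bub1, Kif20a and Cdkn1b calls were lost. Without tumor 6, 11 members were called higher, against 8.67% of all genes. From the authors' deposited log2 values, 7 members were called higher (9.44% of all genes were), Bub1b and Cdc25b among them and Tpx2 not, and E2f2 was called lower (10.1% of all genes were). Centring each array on its median in place of loess moved the median of all genes from -0.02 to 0.16 and that of the members from 0.11 to 0.52. It put 71.0% of all called genes above the pool in place of 38.4%, and 16 members were then called higher (35.6%, against 11.6% of all genes) and E2f2 lower (4.74% of all genes). The number of members above the pool therefore depends on how the arrays are scaled, and E2f2 was called lower in either case.

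**Figure D5:**
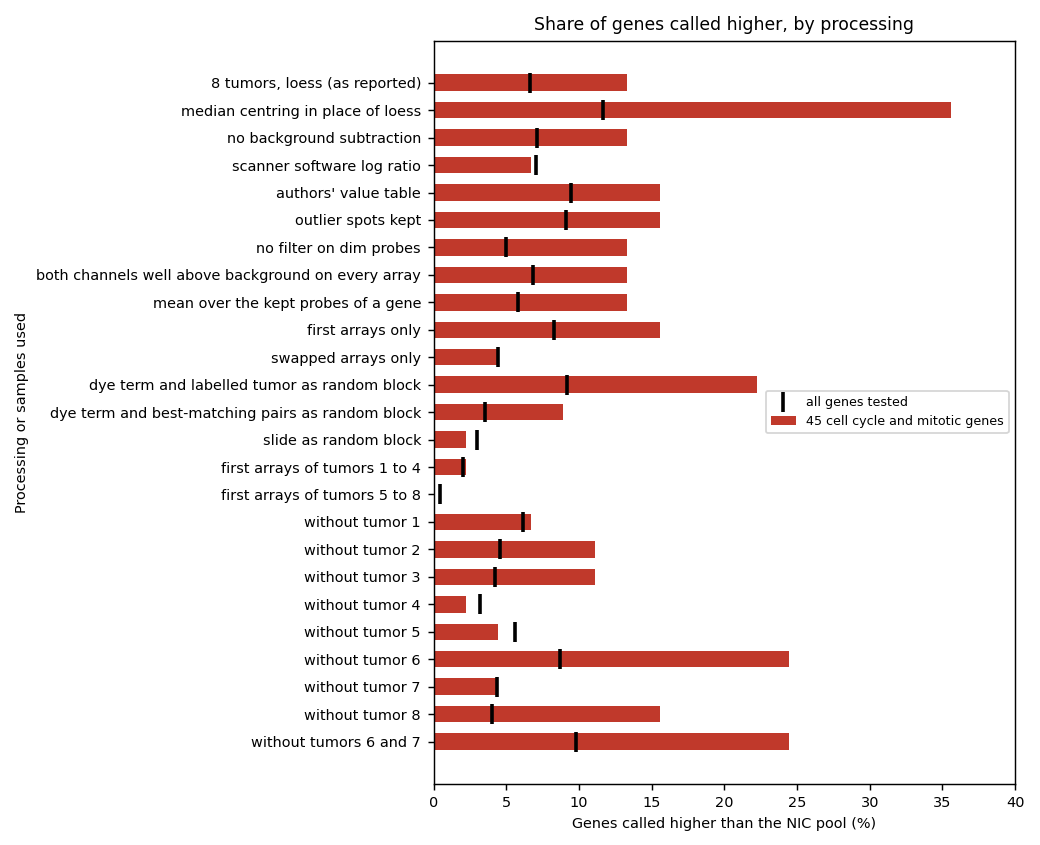
Share of the 45 genes called higher than the pool (red bars, in %) and of all genes tested (black marks) for each way of processing the arrays or choosing the samples. The members' share runs from 0 on the first arrays of tumors 5 to 8 to 35.6% with median centring, and the share of all genes differs between settings too.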

How the data were processed

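Per the labels' protocols, total RNA from each tumor and the pool was amplified from 500 ng by T7 linear amplification. Spot intensities came from Agilent's Feature Extraction software, version 9.5.3.1, and probe coordinates are in mm7, per the file headers. The authors deposited the mean foreground and local background intensity of each spot, Feature Extraction's processed intensity, its log10 ratio of red over green, other columns of flags, and a matrix of log2 values. These log2 values are turned to tumor over pool on all 12 arrays, judged by their slope against the scanner ratio. Their column medians lie between -0.0715 and 0.137, and their scale and centring are not given in the sources used here.

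Background was corrected by normexp (offset 50) and arrays by loess in limma 3.58.1 (R 4.3.3, with the package data.table at version 1.17.8), with control spots at weight 0 and outlier spots left out. Both arrays of tumors 1 to 4 were averaged by label (n = 8). With a dye term, the within-pair correlation was -0.04 for pairs by label and 0.93 for best-matching pairs. If swapped labels are wrong, some of the 8 values mix RNA of different tumors and are not independent. The SDs and p-values over 8 tumors do not allow for this. The 30838 probes kept were well above background in either channel in at least 4 tumors. The number of arrays limits the precision. lmFit and eBayes tested the mean against 0 with Benjamini-Hochberg adjustment over 20419 genes. The labels do not say that the tumors are separate animals, so the p-values reflect only how much these samples vary, which may be technical. Slides hold the first arrays of tumors 1 to 4, those of tumors 5 to 8, and the swapped arrays. No mm7 annotation was used, so exons and UTRs are not given.

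Genes given with every tumor's value are those called, Mki67, Ccnd1, the 2 highest and 2 lowest means of the rest and the 3 largest SDs. Members, lists and this rule were chosen with earlier results of these data known. The fit was tested on simulated data. Alternatives covered normalization, background, filter, probe choice, dye, slide, value table and each tumor left out. RefSeq promoters had no entry for 10 members (Aurkb, Ccna2, Kif20a, Ccne2, Ccnd1, Cdc25c, Rb1, Tpx2, Foxm1 and Ccnd2).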

Additional observations from a re-analysis of the deposited data

Results flagged for a closer look

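In 7 of the 45 genes 1 tumor stood apart from the other tumors by more than the gap allowed by Dixon's 95% criterion, a test that chance alone meets in about 1 in 20 groups. Tumor 6 was the low one in 6 of them. It read -3.70 for Top2a, -3.43 for Cdk1, -3.43 for Cdk4, -2.21 for Ccne2, -2.07 for Ccnd3 and -0.65 for Bub1b. Tumor 8 was the low one for Cenpa, at -0.83. All are log2 ratios of tumor over pool. The share of all genes that meet this criterion is not given here, so the count shows nothing particular to these members. Over all genes, too, tumor 6 spread most widely, with an SD of 1.23 against 0.53 to 1.02 in the other tumors. These 6 values of tumor 6 come from a single array, on which upstream probes read lower than downstream ones, and whether this bears on them was not tested.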

How the results depend on the processing

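No paired analysis was possible because there is 1 group of tumors, and the replicate numbers only name them. Over the 8 tumors 6 members were called higher and 1 lower by limma at an adjusted p under 0.05. The number called higher was 16 with median centring, 3 with the scanner software's log ratio, 2 on the swapped arrays alone, 10 with a dye term and the labelled tumor as a random block, 1 with the slide as a random block, 1 on the first arrays of tumors 1 to 4, 0 on those of tumors 5 to 8, and 11 without tumors 6 and 7. The number called lower was 3 and 2 with a dye term and labelled or best-matching pairs as block, and 0 on the swapped arrays, with the slide block and on either set of 4 first arrays. Leaving out each tumor in turn gave 1 to 11 members called higher, 0 to 2 lower, a members' median of 0.0091 to 0.23, and 1963 to 4540 genes called in all, against 3503. All genes called were 1637 on the swapped arrays, 1632 with best-matching pairs, 1921 with the slide block, and 915 and 217 on the first arrays of tumors 1 to 4 and 5 to 8. The members' median moved from 0.11 to 0.52 with median centring. Counting a sign change where either value was called, the mean reversed for Cdkn1b over all its probes (-0.14), for Cdk1 without tumor 6 (0.42; -0.18 to 0.42 over the tumors left out in turn), and for Top2a and Cdk2 without tumors 6 and 7 (0.53 and 0.53). Where neither value was called, the sign changed in 37 further comparisons over 7 genes: Mki67 (9), Cdk1 (8), Ccnd1 (7), Cdk2 (6), Top2a (5), Cdc25b (1) and Cdk6 (1). On the swapped arrays these gave -0.39 for Cdc25b, -0.33 for Ccnd1, 0.82 for Top2a and 0.40 for Cdk2, and Cdk6 was 0.21 on the first arrays of tumors 1 to 4. The cause was not tested. Of 24 alternatives Kif23 was called in 21, E2f2 in 19, Pttg1 in 17, Bub1 in 13, Cdkn1b in 12, and Kif20a and Tpx2 in 10 each. Mki67, Ccnd1 and Cdk6 were called in 0 of 24.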
